A study of Mus musculus with 6 samples.

Results

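The genes described here carry cytokine signals from the surface of the muscle cell to its nucleus, through the IL-6 family of receptors, the JAK kinases and the STAT transcription factors. They are 4 receptor chains (Il6ra, Il6st, Lifr and Osmr), 2 kinases (Jak1 and Jak2) and 3 transcription factors (Stat3, Stat5a and Stat5b). The 9 genes were taken by symbol from a table of 54532 genes, and all 9 had enough counts to be tested, among 14867 genes tested in all. They were listed by name, with no threshold on a measured value. The study sequenced muscle RNA of C57BL/6 mice in 6 libraries, and whether each library is 1 mouse is not spelled out in the labels. The 3 control libraries are from Mck-Cre-; Igf2f/f mice and the 3 Igf2 cKO libraries from Mck-Cre+; Igf2f/f littermates. Both groups thus carried Igf2 alleles with loxP sites beside exon 2, and the groups differed in the presence of Mck-Cre, a Cre recombinase driven by the creatine kinase promoter of striated muscle. Cells of the tissue other than muscle fibres keep Igf2 in this model, and no group of Cre carriers with unfloxed alleles is among the libraries used here. The labels name neither the muscle nor the age or sex of the mice. Nothing beyond genotype is listed as a treatment.

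IL-6 binds its own receptor chain, Il6ra, and the pair then joins Il6st (gp130), the signalling chain that the whole family shares. LIF, oncostatin M and their relatives use Lifr or Osmr together with gp130. Receptor chains of this family have no kinase of their own: JAK1 and JAK2 are bound to their tails, phosphorylate them, and then phosphorylate STAT3 or STAT5, which enter the nucleus. SOCS proteins are made in response and restrain the same kinases and receptors. In muscle, gp130 and STAT3 are known for roles in satellite cells and in wasting, and growth hormone acts on muscle through JAK2 and STAT5B. RNA counts do not report phosphorylation, the step that switches these proteins on.

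None of the 9 genes differed between the genotypes at the threshold of an adjusted p under 0.05 by edgeR's quasi-likelihood test. Over all genes tested the same rule called 37, or 0.249%. DESeq2 called 0 of the 9 (1.35% of 15090 genes with an adjusted p), limma-voom 0 (0.229%), and the cutoff named by the series, which asks for an absolute log2 fold change over 1 and an unadjusted p under 0.05, also 0 (1.58%). At an unadjusted p under 0.05, edgeR took 1 of the 9, Jak2, against 9.93% of all genes. The 9 adjusted p-values of edgeR lay between 0.332 and 0.889. The 95% interval of the log2 fold change (Igf2 cKO over control) lay within -1 to 1 for all 9 genes, which places each difference in these libraries under 2-fold either way. That was so for 78.9% of all genes tested. The fold change was below 0 for 7 of the 9, against 49.2% of all genes, and their median was -0.21, beside 0.00 over all genes. In CPM, here computed from the counts with TMM (trimmed mean of M values) library sizes, the 3 cKO libraries were all below the 3 controls for 2 of the 9, Il6st and Jak2, against 7.67% of all genes. In either direction the count was also 2, against 15.5%.

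**Figure D1:**
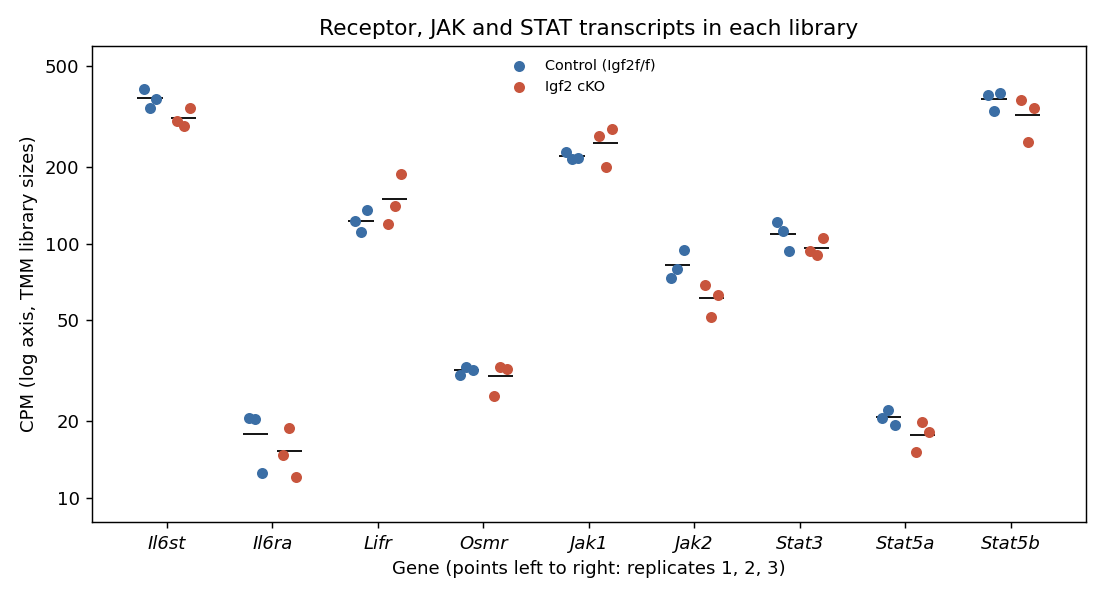
CPM of each gene (log axis) in the 3 control libraries (blue) and the 3 Igf2 cKO libraries (red), with replicates 1 to 3 from left to right and the group mean as a bar. The groups are apart for Il6st and Jak2 and overlap for the other 7 genes.

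The libraries held between 16184371 and 17905203 counts, with TMM factors from 0.9373 to 1.033, and their log2 CPM correlated at 0.9736 to 0.9856 over genes. The counts of Igf2 itself, the targeted gene, were 60, 43 and 39 among the controls and 33, 37 and 42 among the cKO. Its log2 fold change was -0.31 with an adjusted p of 0.751 by edgeR, and a count over the whole gene does not separate the floxed exon, so it does not check the labels. Skeletal muscle fibre genes fitted the tissue label, with Acta1 between 33039 and 40707 CPM and Ckm between 10691 and 13501 CPM. Markers of other cells were present at lower levels, and 0 of the markers in 11 cell type lists were called. The summed markers of fibres and of erythroid cells were apart between the groups, the fibre sum by a narrow margin. The 7 fibre markers summed to 131190 to 155660 CPM in controls and 99380 to 130960 CPM in the cKO, and the 4 erythroid markers to 428 to 570.3 and 300.1 to 344 CPM. The sums of the other 9 lists overlapped, and the neutrophil gene Mpo was at 0 in every library. In whole muscle, fewer cells of a type and less RNA per cell cannot be told apart. The labels call the controls littermates but tie no library to a mouse or litter, so p-values measure the spread between these 6 libraries.

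Among the receptors, the gp130 gene had the highest level per length, at a mean FPKM of 30.6 over the 6 libraries. This gene, Il6st (ENSMUSG00000021756, chr13:112464070-112510086, plus strand), had 405, 343 and 371 CPM in control replicates 1 to 3 and 303, 289.9 and 340.4 CPM in the cKO. Control replicate 2 and cKO replicate 3 were nearly level, and every other control was well above every cKO library. The means were 373 ± 31.4 and 311 ± 26.2 CPM (SD, n = 3 each). On the log2 scale the fitted difference was -0.26 ± 0.12 (SE), and its 95% interval ran from -0.53 to 0.01. Its edgeR p was 0.0582 and its adjusted p 0.525. The separation of the groups rests on the scaling. In the authors' FPKM, control replicate 2 stood at 30.66 and cKO replicate 3 at 30.68, so the groups overlapped slightly. In unscaled counts they overlapped too, with 5672 in control replicate 3 and 5758 in cKO replicate 3.

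Il6ra, the chain that binds IL-6, had the lowest mean FPKM of the 9, at 1.90. Il6ra (ENSMUSG00000027947, chr3:89864059-89913196, minus strand) had 20.6, 20.3 and 12.6 CPM in control replicates 1 to 3 and 14.8, 18.7 and 12.1 CPM in the cKO, from 192 to 381 counts. Replicate 3 was the low library of both groups, and the groups overlapped over most of their range. The log2 fold change was -0.23 ± 0.22 (SE, 95% interval from -0.74 to 0.27, edgeR adjusted p = 0.796), the widest interval of the 9. It was -0.12, -0.14 and -0.43 without control replicates 1, 2 and 3 in turn, -0.41 without cKO replicate 2 and -0.09 without cKO replicate 3. The summed CPM of 6 macrophage markers was 332, 342 and 154 in controls and 304, 246 and 208 in the cKO. It was lowest in replicate 3 of both groups as Il6ra was, and so were the fibroblast and the T and B cell marker sums. The fibroblast sum was 7999, 6337 and 3509 CPM in controls and 6208, 5116 and 4235 CPM in the cKO. Within the cKO, replicate 1 had the highest macrophage sum but replicate 2 the most Il6ra. Of the 6 macrophage markers 5 were below 0 (49.2% of all genes) and 0 were called, and their part in the Il6ra values was not tested.

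Osmr, the oncostatin M receptor, was the steadiest of the 4 chains in controls. Osmr (ENSMUSG00000022146, chr15:6813577-6874969, minus strand) had 30.4, 32.7 and 31.9 CPM in controls and 25.2, 32.7 and 32.1 CPM in the cKO. Only cKO replicate 1 stood below the rest. The log2 fold change was -0.08 ± 0.12 (SE, 95% interval from -0.34 to 0.19, edgeR adjusted p = 0.889), and it was 0.035 without that library.

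Lifr, the LIF receptor, was the receptor chain with a fold change above 0. Lifr (ENSMUSG00000054263, chr15:7090614-7197489, plus strand) lies 215.6 kb from Osmr on the same chromosome. It had 122.5, 111 and 135 CPM in controls and 119.6, 141 and 188 CPM in the cKO. Replicate 3 of the cKO was high and cKO replicate 1 lay inside the control range. The log2 fold change was 0.29 ± 0.17 (SE, 95% interval from -0.10 to 0.67, edgeR adjusted p = 0.631), and 0.09 without cKO replicate 3. That library also had the highest adipocyte marker sum. The 5 adipocyte markers summed to 851 CPM there, against 270 and 113 CPM in cKO replicates 1 and 2. In controls they summed to 400, 315 and 72.2 CPM. The other libraries did not follow this order: control replicate 3 had the lowest sum and the highest Lifr of the controls. Likewise, cKO replicate 2 had a lower sum than cKO replicate 1 but more Lifr. All 5 markers had a fold change above 0 (49.2% of all genes were below 0) and 0 were called, and their part in the Lifr values was not tested.

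**Figure D2:**
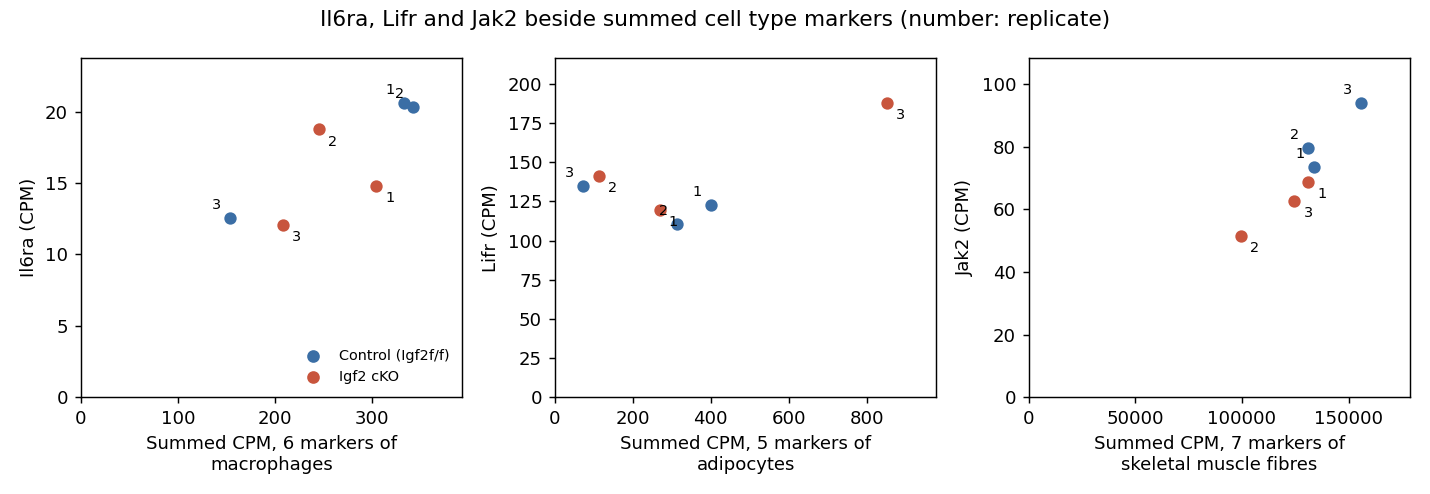
Il6ra, Lifr and Jak2 (CPM, vertical axes) beside the summed CPM of macrophage, adipocyte and skeletal muscle fibre markers (horizontal axes) in each library, numbered by replicate, with controls in blue and Igf2 cKO in red. Igf2 cKO replicate 3 is highest for both Lifr and the adipocyte markers, and Igf2 cKO replicate 2 is lowest for both Jak2 and the fibre markers. Control replicate 3 is lowest for the adipocyte markers and highest of the controls for Lifr.

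The 2 kinases had fold changes of opposite sign. Jak1 (ENSMUSG00000028530, chr4:101152367-101265282, minus strand), the main kinase of gp130, had 229, 216 and 218 CPM in controls and 265, 200.2 and 283 CPM in the cKO. The controls were close together, and the cKO libraries fell on both sides of them. Its log2 fold change was 0.17 ± 0.14 (SE, 95% interval from -0.15 to 0.50, edgeR adjusted p = 0.751). It was 0.07 without cKO replicate 3 and 0.31 without cKO replicate 2.

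Jak2 had the smallest p of the 9 genes. Jak2 (ENSMUSG00000024789, chr19:29251828-29313080, plus strand), the kinase of the growth hormone receptor, had 73.5, 79.6 and 94.1 CPM in controls and 68.9, 51.6 and 62.7 CPM in the cKO. Every cKO library was below every control in CPM, in FPKM and in unscaled counts, where controls had 1357, 1423 and 1439 and the cKO 1235, 834 and 1061. The means were 82.4 ± 10.6 and 61.1 ± 8.76 CPM (SD, n = 3 each), and the fitted change was -25.8%. This is a log2 fold change of -0.43 ± 0.14 (SE), its 95% interval running from -0.74 to -0.12. The unadjusted p was 0.0125 and the adjusted p 0.332 by edgeR. The adjusted p misses the threshold. With single libraries left out the fold change ran from -0.53 to -0.32. The fibre marker sum, over 7 genes, was 133750, 131190 and 155660 CPM in controls and 130960, 99380 and 124590 CPM in the cKO. Control replicate 3 was highest and cKO replicate 2 lowest for both this sum and Jak2. For the sum, control replicate 2 and cKO replicate 1 were nearly level. Taken singly, Myh4, Ckm and Mylpf were apart between the groups, against 7.67% of all genes with the cKO lower. The margins were narrow for Myh4 (33158 CPM in control replicate 2, 32994 CPM in cKO replicate 1) and Mylpf (8874.5 and 8869.9 CPM in the same libraries). Acta1, Atp2a1, Tnnt3 and Pvalb overlapped. All 7 had a fold change below 0 (49.2% of all genes) and 0 were called. Their part in the Jak2 values was not tested.

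The genes whose log2 CPM followed that of Jak2 most closely over the 6 libraries, of 13776 searched with a mean of at least 1 CPM, were Wtap, Map2k7 and Eif5b. Wtap encodes a subunit of the RNA m6A methyltransferase, and its Pearson r with Jak2 was 0.999. Map2k7, a kinase that activates JNK, and Eif5b, a translation initiation factor, each had an r of 0.988. None of these was called (edgeR adjusted p of 0.633, 0.492 and 0.778). With 6 libraries, 64 genes had an r above 0.95, so these values describe likeness only.

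Stat3 (ENSMUSG00000004040, chr11:100885098-100939540, minus strand), the factor that gp130 mainly activates, had 121, 112 and 93.7 CPM in controls and 93.2, 90.6 and 105.2 CPM in the cKO. Control replicate 3 lay among the cKO libraries. The log2 fold change was -0.18 ± 0.12 (SE, 95% interval from -0.45 to 0.09, edgeR adjusted p = 0.683). It was -0.10 without control replicate 1 and -0.28 without control replicate 3.

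Stat5b was the most abundant of the 9 transcripts per length and Stat5a among the scarcest. Stat5b (ENSMUSG00000020919, chr11:100780731-100850724, minus strand) had 385, 334 and 391 CPM in controls and 369, 251 and 342 CPM in the cKO. Replicate 2 was the low library of both groups. The log2 fold change was -0.21 ± 0.16 (SE, 95% interval from -0.57 to 0.15, edgeR adjusted p = 0.738) and -0.06 without cKO replicate 2. Stat5a (ENSMUSG00000004043, chr11:100859351-100885169, plus strand) had 20.6, 22.2 and 19.3 CPM in controls and 15.1, 19.8 and 18.2 CPM in the cKO. The groups overlapped by control replicate 3 and cKO replicate 2. Its log2 fold change was -0.23 ± 0.13 (SE, 95% interval from -0.52 to 0.06, edgeR adjusted p = 0.610), and it was -0.13 without cKO replicate 1.

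**Figure D3:**
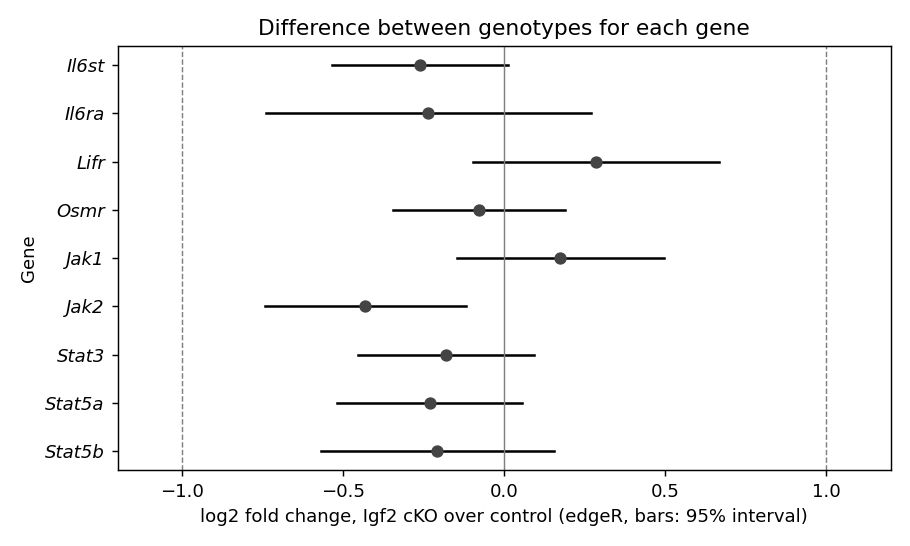
Log2 fold change (Igf2 cKO over control) of each gene with its 95% interval from edgeR, with dashed lines at -1 and 1. All 9 intervals lie between the dashed lines, and the interval of Jak2, from -0.74 to -0.12, is the one that does not reach 0.

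The 3 Stat genes form 1 cluster on chromosome 11 that spans 158.8 kb, with 8.6 kb between Stat5b and Stat5a. Stat5a and Stat3 overlap by 72 bases at their 3′ ends on opposite strands, which is 1.01% of the listed length of Stat5a and 0.756% of that of Stat3. No source used here gives the strand setting of the counting, so reads in those bases cannot be told apart. Stat5a and Stat5b are near-identical in parts of their coding sequence. Of the 50-base windows of the Stat5a-201 coding sequence (GENCODE M21), 26.1% occurred letter for letter in Stat5b-201, as did 7.85% of its 150-base windows. The longest identical run was 324 bases, at coding positions 571 to 894 of both transcripts. It covers parts of exons 7 to 9 of 20 in Stat5a (chr11:100874023-100874983, plus strand, GRCm38) and of exons 6 to 8 of 19 in Stat5b (chr11:100797741-100798701, minus strand). No 50-base window of Stat5a-201 occurred in Stat3-201, and none of Jak1-201 in Jak2-202. The left edge of the run is shown because a read lying within the run cannot be assigned to either gene. The 30 coding bases before the run and its first 60 bases are joined across an intron, and capitals mark the letter at which the transcripts differ.
Stat5a-201, chr11:100865496-100874082, plus strand, exons 6 and 7: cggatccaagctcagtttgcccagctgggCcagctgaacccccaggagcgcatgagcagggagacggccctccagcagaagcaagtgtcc
Stat5b-201, chr11:100798642-100801416, minus strand, exons 5 and 6: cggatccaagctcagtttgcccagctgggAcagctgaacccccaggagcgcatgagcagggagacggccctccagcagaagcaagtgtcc
The 90 bases differ at 1 position. No source used here says how the authors' counting treated reads that fit both genes. Its part in the level of Stat5a, the scarcer of the pair, was not tested.

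Levels of different genes were compared in the authors' FPKM, which corrects for the listed gene length. Mean FPKM over the 6 libraries was 62.0 for Stat5b, 32.4 for Jak1, 30.6 for Il6st, 14.2 for Jak2, 12.6 for Lifr, 10.7 for Stat3, 2.67 for Stat5a, 2.53 for Osmr and 1.90 for Il6ra. The ranges of neighbours in this order were apart at 3 places. These lie between Stat5b and Jak1, between Il6st and Jak2, and between Stat3 and Stat5a, so the genes formed 4 levels. Within a level the ranges overlapped. Jak1 exceeded Il6st in 3 of 6 libraries, Jak2 exceeded Lifr in 4 of 6, and Lifr exceeded Stat3 in 4 of 6. Stat5a exceeded Osmr in 5 of 6. Osmr exceeded Il6ra in 6 of 6 libraries although their ranges over libraries overlapped. The listed length of each gene equals the union of its exons in GENCODE M21. A gene whose muscle transcripts use fewer of those bases is therefore understated in FPKM.

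The balance of Il6ra to Il6st RNA and of Stat5b to Stat5a RNA was compared on the same scale. These are RNA values of whole muscle, not of receptor or STAT5 protein, and reads that fit both Stat5 genes, described above, bear on the second. Il6st exceeded Il6ra by 12.0 to 23.0 times. The ratio of Il6ra to Il6st FPKM was 0.0653, 0.0761 and 0.0435 in controls and 0.0626, 0.0831 and 0.0455 in the cKO, so each cKO library was close to the control of the same number and the groups overlapped. The difference of the mean log2 ratio (cKO minus control) was 0.04, with p = 0.8 in a two-sided exact permutation test. Stat5b made up 96.0%, 95.1% and 96.3% of the Stat5a and Stat5b FPKM in controls and 96.9%, 94.2% and 96.0% in the cKO. The means were 95.8% ± 0.633 and 95.7% ± 1.37 (SD, n = 3 each) and differed by -0.07 percentage points (two-sided exact permutation p = 1.0). With 3 against 3 libraries the smallest p this test can give is 0.1, and leaving out single libraries turned the sign of both differences.

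**Figure D4:**
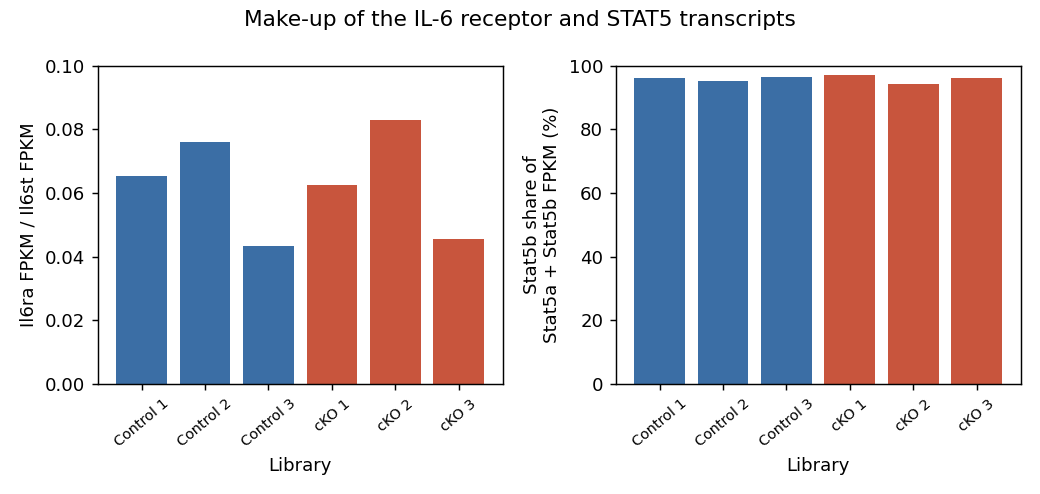
Ratio of Il6ra to Il6st FPKM (left) and share of Stat5b in the Stat5a and Stat5b FPKM in percent (right) in each library, with controls in blue and Igf2 cKO in red. The ratio lies between 0.0435 and 0.0831 and the share between 94.2% and 96.9%, with the groups overlapping in both.

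From library to library, some of the 9 genes varied alike and others did not. Among the 36 pairs, Pearson r of log2 CPM over the 6 libraries ran from -0.67 (Jak1 and Stat5a) to 0.83 (Osmr and Stat5a) with a median of 0.12, and 15 pairs were below 0. Jak2 and Stat5b had an r of 0.81 and Il6st and Stat3 one of 0.73. These values share the same 6 libraries and their scaling and are given as a description. The lowest CPM of 5 of the 9 genes (Il6st, Jak1, Jak2, Stat3 and Stat5b) was in cKO replicate 2, which also had the lowest fibre marker sum. The markers in that sum were not equally low there. Myh4 was at 17313 CPM, against 32994 and 28676 CPM in cKO replicates 1 and 3. Acta1 was at 33039 CPM, against 35698 and 33571 CPM. What made the sum low was not tested. From its lowest to its highest library, a gene spanned between 1.30 times (Osmr) and 1.82 times (Jak2).

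In the authors' deposited table, which compares each cKO library with the control of the same number, 0 of the 9 genes had an unadjusted p under 0.05 in any of the 3 comparisons, against 11.3% of 14866 genes tested, and every adjusted p of the 9 was 1.0. The log2 fold changes in the authors' deposited table were below 0 in all 3 comparisons for 5 genes (Il6ra, Il6st, Jak2, Stat5a and Stat5b), against 15.6% of the 14866, and for Jak2 they were -0.09, -0.62 and -0.58. They come from the same 6 libraries, and with 1 library on each side the authors' p-values do not measure the spread between libraries.

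The promoters of the 2 genes whose groups were apart in CPM are shown as examples of the promoters of the 9. All 9 matched entries of the RefSeq promoter table (GRCm38.p6), with 12 promoters of 300 bases, from 250 before the start to 50 after it. The motifs below and the stretches printed were chosen after the values had been seen. The 120 bases before the start follow, with GC boxes (GGGCGG on either strand) in capitals.
Il6st, chr13:112463950-112464069, plus strand: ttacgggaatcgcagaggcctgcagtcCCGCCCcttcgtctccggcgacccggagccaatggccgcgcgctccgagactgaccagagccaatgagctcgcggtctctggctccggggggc
Jak2, chr19:29251683-29251802, plus strand: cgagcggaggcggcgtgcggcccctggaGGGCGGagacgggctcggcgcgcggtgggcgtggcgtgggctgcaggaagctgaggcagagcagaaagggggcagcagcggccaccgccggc
A GC box was in 8 of the 12 promoters, against 35.7% of all 32851 promoters of the table. TATAAA was in 0 of the 12, against 13.6%, and GC content ran from 47.3% to 82.7%, against a median of 52.7% over all. The cAMP element TGACGTCA was in 1, that of Jak1, against 1.79%. The STAT motif TTCNNNGAA, which reads the same on both strands, was in 0 of the 12 promoters, against 8.3% of all, and the form with 4 letters between TTC and GAA in place of 3 was also in 0, against 6.95%. Each promoter was counted once for a motif if it held a match on either strand, and a match describes letters only. For comparison, promoters of Cish, Socs1, Socs2 and Socs3 were sought. Socs2 had no entry among the promoters, and of the 3 found, 2 hold the STAT motif. It is shown in capitals in windows of 30 bases because these genes are the STAT targets whose values follow.
Cish: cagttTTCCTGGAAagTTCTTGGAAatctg
Socs3: cagccTTCTTAGAAgggaggggggggaaag
The Cish matches begin at positions 1 and 12, counting the start base as 1, and the Socs3 match 154 bases before the start. The Socs1 promoter held none.

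The remaining genes of the pathway are given by role. Over all genes tested, the shares to set beside each list are 0.249% called by edgeR and 49.2% below 0, with a median of 0.00. In the IL-6 family ligands, 5 of 10 passed the low-count filter and 0 of those were called, with 2 below 0. The counts of Il6 were 4, 6 and 2 among the controls and 0, 0 and 2 among the cKO, too few to compare. Il11 had 3, 6 and 2 counts in controls and 15, 6 and 4 in the cKO, and Osm between 0 and 5 in any library. Cntf, ciliary neurotrophic factor, had 1 to 4 counts and Il27 had 0 to 3. Lif had 24, 22 and 13 counts in controls and 18, 13 and 11 in the cKO (log2 fold change -0.46, edgeR adjusted p = 0.734). Ctf1, cardiotrophin 1, was among the better detected ligands, with 180, 216 and 169 counts in controls and 211, 159 and 199 in the cKO, and its fold change of 0.02 took either sign when libraries were left out. Clcf1, a cardiotrophin-like cytokine, stood at a log2 fold change of 0.40 (edgeR adjusted p = 0.762). Ebi3, a subunit of IL-27, was at -0.28 (adjusted p = 0.908), from 6 to 21 counts. RNA of ligands made in other organs is outside these libraries.

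Of the other IL-6 family receptors, 0 of 3 were called and 0 were below 0 (49.2% of all genes). Il11ra1, the IL-11 receptor chain, had 60.8, 63.8 and 52.3 CPM in controls and 91.6, 74.6 and 65.0 CPM in the cKO, with every cKO library above every control (1 of 3, against 7.83% of all genes). Its log2 fold change was 0.39 ± 0.14 (SE, edgeR adjusted p = 0.406). The mouse genome holds a near-identical copy of this gene, so its count is uncertain. Cntfr, the CNTF receptor chain, was at 0.26 ± 0.14 (SE, edgeR adjusted p = 0.596).

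Of 18 tested receptors of other cytokines and of growth hormone, 0 were called (0.249% of all genes), 11 were below 0 (49.2%), and the median fold change was -0.11. The cKO libraries were all below the controls for 2 of the 18, Lepr and Csf2rb, against 7.67% of all genes. Lepr, the leptin receptor, which signals through JAK2 and STAT3, had 14.2, 11.2 and 10.5 CPM in controls and 9.04, 8.66 and 8.16 CPM in the cKO. The groups were apart at a log2 fold change of -0.48 ± 0.15 (SE, edgeR adjusted p = 0.343). Csf2rb, the shared chain of the GM-CSF, IL-3 and IL-5 receptors, had 14.5, 12.6 and 12.5 CPM in controls and 7.42, 4.83 and 10.8 CPM in the cKO. Its log2 fold change was -0.78 ± 0.25 (SE, edgeR adjusted p = 0.345, but 0.047 with no low-count filter), and it too has a near-identical copy in mice. Ghr, the growth hormone receptor, was looked at after the values were seen because it acts through JAK2 and STAT5B. It had 164, 154 and 156 CPM in controls and 149.7, 123 and 203 CPM in the cKO, around the same level (log2 fold change 0.00, 95% interval from -0.38 to 0.39, edgeR adjusted p = 0.997).

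The kinases and factors beside the 9 were also uncalled. Of 5 tested, 0 passed (0.249% of all genes) and 4 were below 0 (49.2%). Jak3, the kinase of the common gamma chain receptors, was at -0.24 ± 0.14 (SE) and Stat2, a factor of interferon signalling, at -0.16 ± 0.12 (SE), with edgeR adjusted p of 0.630 and 0.711. Stat4, with 1 or 2 counts per library, did not pass the low-count filter.

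**Figure D5:**
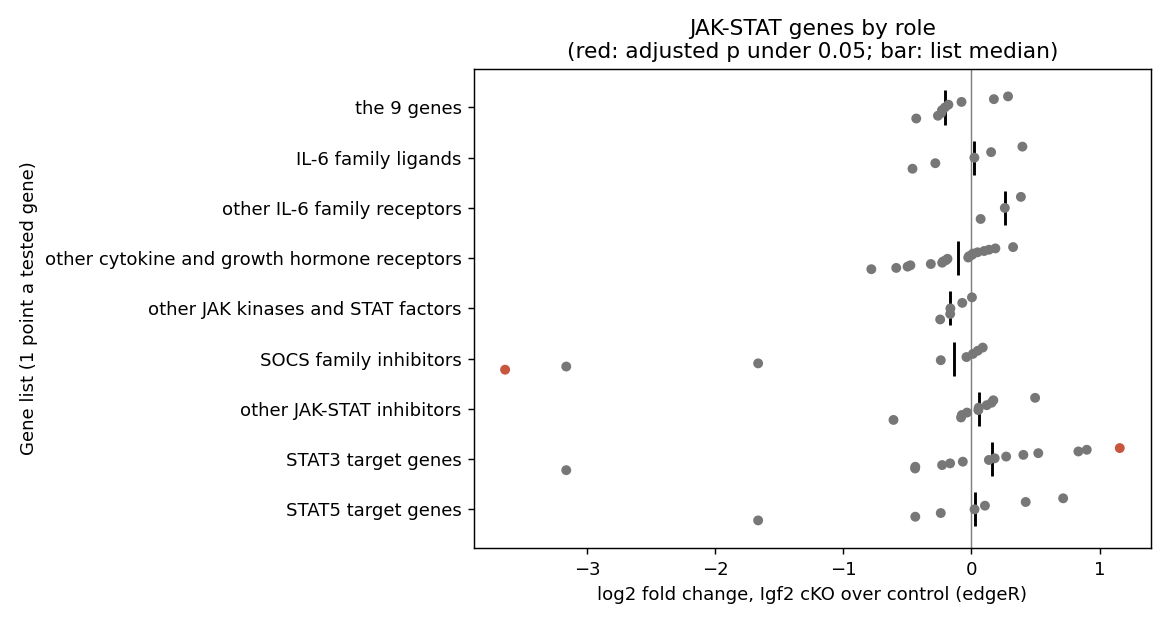
Log2 fold change (Igf2 cKO over control, edgeR) of every tested gene by role, with the list median as a bar and genes with an adjusted p under 0.05 in red. The 9 genes lie between -0.43 and 0.29, and the red points are Socs1 at -3.64 and Cebpb at 1.16.

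Among the inhibitors, Socs1 fell and no other was called by edgeR with its default filter. With no low-count filter, edgeR also called Socs3 and Cish (adjusted p of 9.337e-07 and 0.0215). Of the 8 SOCS family genes, 3 had all cKO libraries below all controls (against 7.67% of all genes), namely Socs1, Socs3 and Cish. Socs1, which inhibits JAK kinases directly, had 27.3, 93.1 and 57.9 CPM in controls and 5.13, 7.49 and 1.71 CPM in the cKO, a log2 fold change of -3.64 ± 0.54 (SE, edgeR adjusted p = 0.0475). This call was lost without any single library other than cKO replicate 2, with adjusted p of 0.0502 to 0.164, and its adjusted p was 0.117 by limma-voom but 0.000204 by DESeq2. Socs3, which binds gp130 and JAKs, had 30.1, 193 and 76.4 CPM in controls and 13.8, 14.2 and 5.50 CPM in the cKO, at -3.16 ± 0.64 (SE). Its adjusted p was 0.144 by edgeR and 0.0126 by DESeq2. Cish, a STAT5 target, had 122, 188 and 152 CPM in controls and 10.8, 112 and 22.9 CPM in the cKO, at -1.66 ± 0.70 (SE, edgeR adjusted p = 0.485). Without cKO replicate 2, the high library of its group, Cish was at -3.19 with an adjusted p of 0.00457. The other 5 SOCS genes lay between -0.24 and 0.09. Of 10 other inhibitors 0 were called (0.249% of all genes) and 4 were below 0 (49.2%). All cKO libraries were above all controls for 3 of them, Ptpn1, Ptpn2 and Ptpn11, against 7.83% of all genes. Ptpn1 and Ptpn11, named after their values were seen, encode phosphatases and stood at 0.16 and 0.17 (edgeR adjusted p of 0.614 and 0.608). Ptpn2, a phosphatase of JAK1 and STATs, had 10.7, 11.5 and 11.8 CPM in controls and 17.4, 13.1 and 17.3 CPM in the cKO, apart between the groups at 0.50 ± 0.14 (SE, edgeR adjusted p = 0.282). Ptpn6 (SHP-1), a phosphatase found mainly in blood cells, was at -0.61 ± 0.28 (SE, edgeR adjusted p = 0.527).

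Genes that STAT3 or STAT5 are known to regulate had fold changes on both sides of 0. Of 14 tested STAT3 targets, 1 was called (0.249% of all genes), 8 were above 0 and 6 below (49.2%), with a median of 0.16 beside 0.00. The called gene was Cebpb, a transcription factor also driven by other pathways, which rose from 75.2, 83.8 and 66.7 CPM in controls to 171, 172 and 160.04 CPM in the cKO. Its log2 fold change was 1.16 ± 0.11 (SE, edgeR adjusted p = 0.00718), and the adjusted p was 0.0503 without control replicate 1. Socs3, in the same list, was at the opposite end. Of 7 tested STAT5 targets, 0 were called (0.249%), with 4 above 0, 3 below (49.2%) and a median of 0.02. Bcl6, a repressor that STAT5 is known to turn down, had 80.7, 97.7 and 81.9 CPM in controls and 186, 105 and 137 CPM in the cKO. The groups were apart at 0.72 ± 0.20 (SE), with an adjusted p of 0.263 by edgeR and 0.0277 by DESeq2. Cish, the classical STAT5 target, is described above.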

How the data were processed

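RNA-seq of 6 libraries was analysed, with groups and replicate numbers from the sample titles. The deposited table gives, per the file headers, read counts (whole numbers) and FPKM by gene and library, as well as the authors' log2 fold change, p-value and adjusted p-value for 3 comparisons of 1 cKO library with 1 control. The aligner, counter, strand setting and build were not given in any source used here. Coordinates are as in the table and equal those of GENCODE M21 (GRCm38) for the 9 genes. Another 6 columns of per-sample values with names that match no title were not used here.

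Counts were tested with edgeR 4.0.16 in R 4.3.3 (TMM, filterByExpr, glmQLFTest, genotype alone, Benjamini-Hochberg over 14867 genes), called at an adjusted p under 0.05 and tested on simulated data. Standard errors follow from the F statistic. CPM uses TMM library sizes, and log2 CPM a prior count of 2. Totals of 16184371 to 17905203 counts limit the precision of genes with few counts. Ratios were compared by exact permutation. Alternatives were other size factors, library sizes without mitochondrial DNA genes, other filters, DESeq2 1.42.0, limma 3.58.1 (voom), a replicate block, other thresholds, and leaving out each library.

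The members, lists and markers were chosen with earlier results of these data known. Named genes are the 9, Igf2, all IL-6 family ligands, the called genes of each other list (made up to 2 by smallest p), and the 3 genes most correlated with Jak2, the gene of smallest p. Others, and the pairing of Il6ra, Lifr and Jak2 with cell type markers, were chosen after values were seen. Some results that the rule would name are not reported here. Lists share Socs3, Cish, Socs2, Pim1 and Osm.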

Additional observations from a re-analysis of the deposited data

How the results depend on the processing

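The count of called genes among the 9 was 0 under every alternative, including the replicate block, an adjusted p under 0.1 and each library left out, with adjusted p of 0.135 or more. Over all genes edgeR called 37. The count was 282 with no low-count filter, 203 with DESeq2 and 8 to 68 with 1 library left out (8, 15 and 13 when control replicate 1, 2 or 3 was the one left out, 68 for cKO replicate 2 and 17 for cKO replicate 3). With 1 library left out, log2 fold changes ran from -0.14 to 0.035 for Osmr, -0.057 to 0.10 for Ctf1 and -0.68 to 0.13 for Ebi3. The Ctf1 values below 0 were -0.057, -0.019 and -0.020. The log2 Il6ra to Il6st difference ran from -0.19 to 0.27 and the Stat5b share difference from -0.67 to 0.68 percentage points. The cause was not tested. In the labels, same-numbered libraries share only a number. Their deviations from the group means correlated at 0.163, 0.058 and -0.043 over genes. Differently numbered libraries ran from -0.183 (control replicate 1 and cKO replicate 2) to 0.122 (control replicate 3 and cKO replicate 2). With 3 libraries per group these values cannot decide whether the libraries were paired. With the replicate block, edgeR called 35 genes, Jak2 stood at -0.43 (adjusted p = 0.297), the log2 ratio difference at 0.04 and the share difference at -0.07 (exact sign-flip p of 0.5 and 1.0, smallest possible 0.25). No scaling moved the median of all genes by over 0.1. Low counts limit the ligands most.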
